A study of Mus musculus with 16 samples.

Results

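The genes described here are 9 mouse liver genes known to depend on how growth hormone is secreted: Ghr, Socs2, Igf1, Cux2, Bcl6, A1bg, Cyp2d9, Mup20 and Serpina1e. They were picked by name, with their levels under high-fat diet in these arrays already known. They make up 9 of the 6559 genes measured, and 9 of the 25697 probes on the array, since each gene had 1 named probe. A gene counted as measured when its probe was detected (detection p under 0.01) on at least 4 of the 16 arrays. Cux2 was detected on 15 arrays and the other 8 genes on 16, so none lay near or outside that limit.

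Growth hormone binds its receptor GHR on hepatocytes, which activates the kinase JAK2 and the transcription factor STAT5B. The pituitary of male rodents releases the hormone in pulses and that of females more continuously, and the liver reads this pattern out as sex-biased gene expression. CUX2 in females and BCL6 in males are repressors that are part of this readout, A1bg is a female-biased target in mouse liver, and Cyp2d9 and Mup20 are male-biased targets. IGF1 and the inhibitor SOCS2 are produced in response to the hormone in both sexes.

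Liver total RNA of female C57BL/6J mice was labelled with biotin and hybridised to Illumina bead arrays. There were 4 arrays of mice that ate a high-fat diet (HFD) and received nicotinamide mononucleotide (NMN), from which cells make the coenzyme NAD, by intraperitoneal injection for 7 days, 8 arrays of HFD mice without NMN, and 4 arrays of mice on regular chow. Chip B held the NMN arrays and 4 HFD arrays, and chip A held 4 HFD arrays and the chow arrays. In the column names, the 4 HFD animal numbers of chip A recur on chip B, so the 16 arrays stand for 12 mice and the HFD mice serve in both comparisons. The labels give neither the age of the mice, the length of the diet, the hour of liver collection nor any injection of the mice without NMN. All mice were female, so a male-biased gene is measured here in the sex in which it is usually low.

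Each array had a mean signal of 202 and between 9473 and 10569 detected probes. The hepatocyte transcripts Alb, Apoa1, Ttr and Trf were detected on all 16 arrays, and Adipoq, Lep, Retn and Krt19, markers of fat cells and bile duct cells, on 0. HFD mice 2 and 3 stood apart from the other mice in neutrophil markers. The mean log2 level of the 8 of 10 neutrophil markers that were measured was 6.98 and 6.88 in these mice on chip A and 6.96 and 6.91 on chip B. It lay between 4.51 and 5.03 on the arrays of HFD mice 1 and 4, and between 4.39 and 5.20 in the NMN and chow mice. Of the 8, Retnlg, Ngp, Camp and Mpo were detected only on the 4 arrays of HFD mice 2 and 3, so they counted as measured through these mice alone. The neutrophil receptors Csf3r and Cxcr2 were detected on 0 arrays. NMN mouse 3 stood apart in lymphocyte markers. Its level of Cd79b, the 1 measured of 4 B cell markers, was 6.75, against 4.78 to 5.16 in the other NMN mice and 4.74 to 5.72 in HFD mice on chip B. Its mean of Cd3e and Cd3g, the 2 measured of 5 T and NK cell markers, was 5.83, against 4.59 to 5.01 in the other NMN mice and 4.36 to 4.73 in HFD mice on chip B. Ms4a1, Cd8a and Gzma were detected on 0 arrays. Several results below, but not all, are given with and without HFD mice 2 and 3 or NMN mouse 3. Levels below are background-corrected, quantile-normalised log2 intensities, in which a difference of 1 means 2 times the intensity, and levels of different genes are not compared because each rests on its own probe.

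The start regions of 7 of the 9 genes were found in the RefSeq promoter table (mouse build GRCm38.p6, from 250 bases before to 50 bases after each start), in 10 windows. Mup20 and Socs2 were not among them. The windows were searched on both strands for TTCNNNGAA, the palindrome bound by STAT5, and for ATCGAT and ATCAAT, core letters bound by the HNF6 and CUX2 family. Windows of A1bg, Cux2, Serpina1e and Bcl6 held such letters, and 1 window of each is printed to show which letters these are and where they lie. All are on the minus strand of the genome and are read 5′ to 3′ along the gene, with the motif letters in capitals.
A1bg, chr15:60921221-60921520: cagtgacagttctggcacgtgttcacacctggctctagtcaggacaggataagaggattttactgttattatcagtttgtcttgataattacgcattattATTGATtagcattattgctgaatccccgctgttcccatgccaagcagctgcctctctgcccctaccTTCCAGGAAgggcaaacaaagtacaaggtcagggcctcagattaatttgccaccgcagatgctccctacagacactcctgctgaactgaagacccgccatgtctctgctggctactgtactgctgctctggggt
Cux2, second start, chr5:122047776-122048075: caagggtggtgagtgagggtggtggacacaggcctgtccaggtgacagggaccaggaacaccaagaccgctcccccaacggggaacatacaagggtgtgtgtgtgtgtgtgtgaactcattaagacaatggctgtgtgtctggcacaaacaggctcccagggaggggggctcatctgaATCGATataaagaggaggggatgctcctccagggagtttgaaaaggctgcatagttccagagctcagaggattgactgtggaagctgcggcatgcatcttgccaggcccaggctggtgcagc
Serpina1e, chr12:103956848-103957147: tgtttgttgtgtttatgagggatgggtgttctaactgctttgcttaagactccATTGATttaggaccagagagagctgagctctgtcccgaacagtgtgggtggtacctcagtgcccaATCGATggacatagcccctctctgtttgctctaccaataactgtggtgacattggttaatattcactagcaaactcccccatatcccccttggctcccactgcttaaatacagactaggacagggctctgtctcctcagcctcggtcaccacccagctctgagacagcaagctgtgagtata
Bcl6, second start, chr16:23981234-23981533: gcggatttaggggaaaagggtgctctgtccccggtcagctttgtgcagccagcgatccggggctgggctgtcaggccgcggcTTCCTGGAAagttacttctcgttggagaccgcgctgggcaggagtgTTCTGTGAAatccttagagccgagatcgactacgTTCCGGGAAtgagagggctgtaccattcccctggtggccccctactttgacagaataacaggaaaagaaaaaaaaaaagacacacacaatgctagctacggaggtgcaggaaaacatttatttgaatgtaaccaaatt

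Counted from the start site, A1bg had TTCCAGGAA at -84 to -76 and ATTGAT, the other strand of ATCAAT, at -150 to -145. Serpina1e had ATCGAT at -132 to -127 and ATTGAT at -197 to -192, and the second Cux2 start had ATCGAT at -72 to -67. The second Bcl6 start held 3 STAT5 palindromes, TTCCTGGAA at -168 to -160, TTCTGTGAA at -122 to -114 and TTCCGGGAA at -88 to -80, while its first start held TTCTCAGAA at -118 to -110. No match overlapped another. The windows of Cyp2d9, Ghr and Igf1 and the first Cux2 start held none of these letters, which says only that they are not in these windows. Among all 32851 windows of the table, 8.30% held TTCNNNGAA, 0.925% ATCGAT and 7.54% ATCAAT, so these matches describe the windows and show no binding.

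Under the high-fat diet, 7 of the 9 genes had HFD arrays that did not overlap the chow arrays: A1bg, Serpina1e, Cux2, Bcl6, Mup20 and Igf1 were lower, and Cyp2d9 was higher. Across all measured genes, 15.3% did not overlap in this way. By limma at an adjusted p under 0.05 the same 7 genes were called, against 6.89% of all genes, but the genes were chosen with this contrast known, so neither count is evidence about them and no p is given for their diet values. The median of the 9 differences was -0.80 on the log2 scale, against -0.01 for all genes, whose median absolute difference was 0.13. Each difference below comes with the moderated SE of limma, with n = 4 arrays per group. In whole liver, fewer cells of a type and less RNA per cell cannot be told apart.

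With NMN, none of the 9 genes passed an adjusted p of 0.05, and neither did any other gene (0% of 6559 by limma). At an unadjusted p under 0.05, 6 of the 9 did (Cux2, A1bg, Mup20, Bcl6, Igf1 and Socs2), against 9.8% of all genes (643). The genes were picked with the levels of these same HFD mice known, so this count is no independent evidence about them either. No gene of the 9 had NMN arrays that stood entirely clear of the HFD arrays, against 4.89% of all genes. The median of the 9 differences was 0.03, against -0.0033 for all genes. The NMN and diet differences share the HFD mice, which enter them with opposite sign, so they are set side by side and not correlated.

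**Figure D1:**
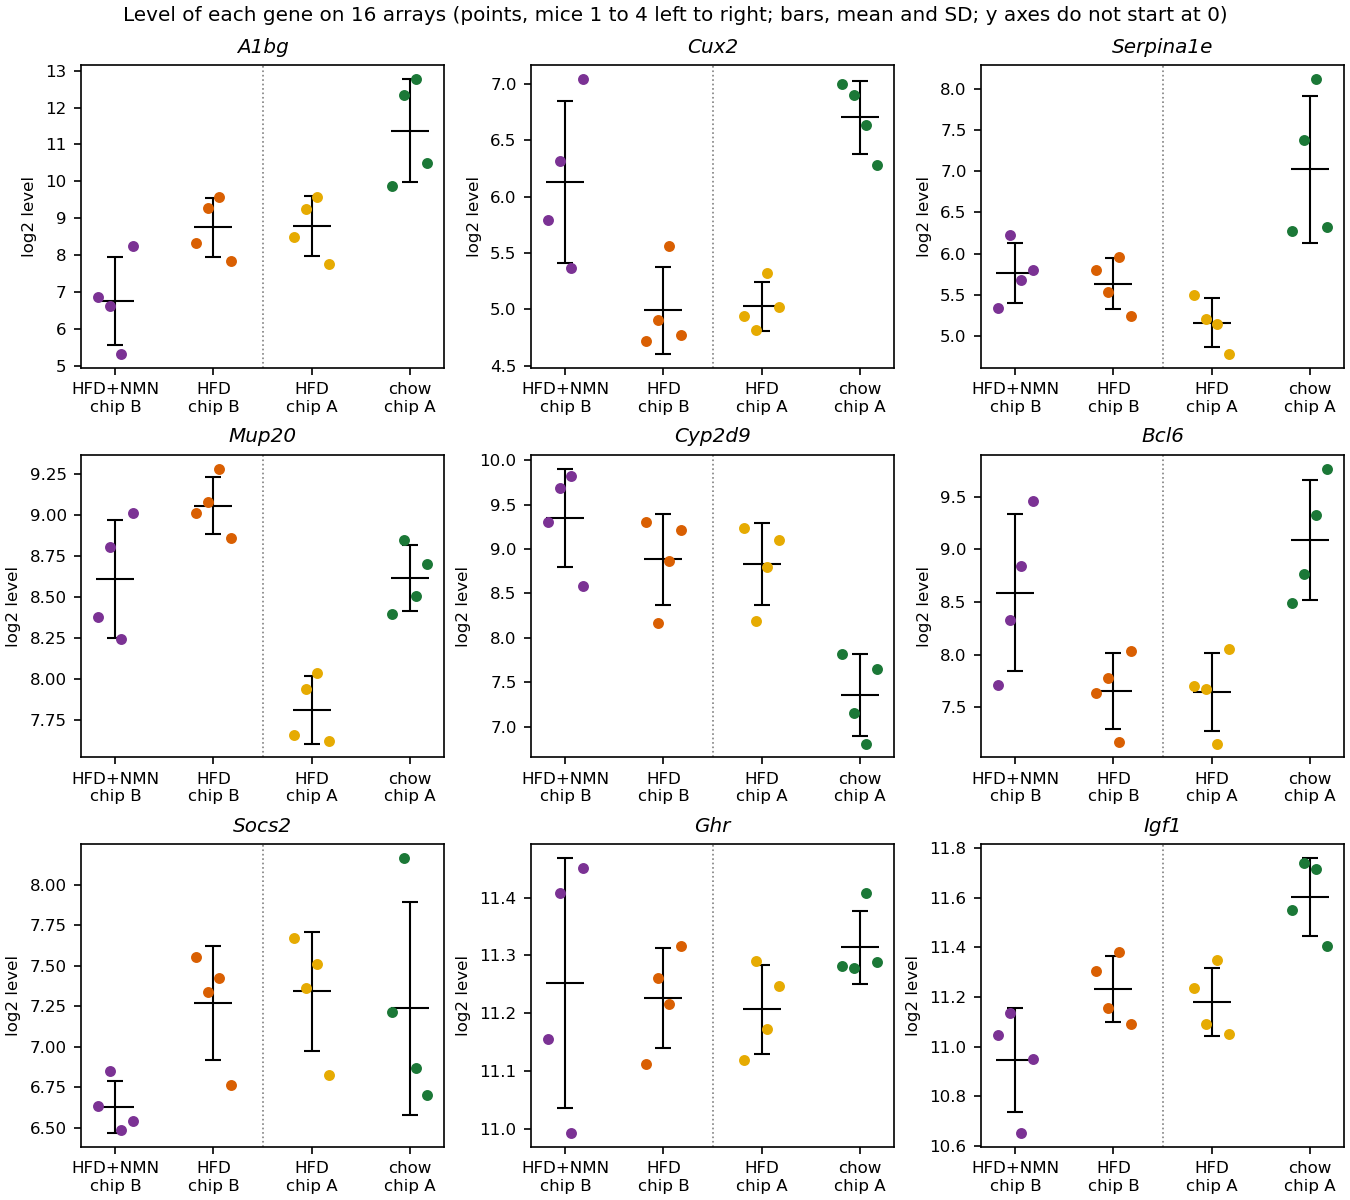
Log2 level of each of the 9 genes (y axis, not starting at 0) on the 16 arrays, with HFD+NMN and HFD on chip B left of the dotted line and HFD and chow on chip A right of it. Points are mice 1 to 4, and bars are the mean and SD of 4 arrays. The HFD and chow points of A1bg, Cux2, Serpina1e, Mup20, Cyp2d9, Bcl6 and Igf1 do not overlap, and the Mup20 HFD points sit near 9 on chip B and near 8 on chip A.

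The receptor gene Ghr was nearly level throughout. It stood at 11.156, 11.409, 10.993 and 11.451 in NMN mice 1 to 4, against 11.113, 11.262, 11.217 and 11.317 in the HFD mice on chip B. On chip A it stood at 11.118, 11.291, 11.172 and 11.247 in HFD mice, against 11.282, 11.278, 11.409 and 11.289 in chow mice. The groups overlapped on both chips, although 3 of the 4 HFD mice on chip A lay below the lowest chow mouse. The NMN difference was 0.03 (SE 0.09, 95% interval -0.17 to 0.22, adjusted p = 0.982 by limma), and the diet difference was -0.11 (SE 0.09).

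Socs2 encodes a SOCS-family inhibitor that dampens growth hormone receptor signalling and is itself induced by STAT5B. It stood at 6.63, 6.85, 6.49 and 6.54 in NMN mice, against 7.55, 7.34, 7.42 and 6.76 in HFD mice on chip B. Every NMN array but mouse 2 lay below all HFD arrays, and the lowest HFD array, mouse 4, lay among them. NMN livers were lower by a difference of -0.64, or 1.56-fold (SE 0.27, 95% interval -1.21 to -0.07, adjusted p = 0.440 by limma). On chip A it stood at 7.67, 7.36, 7.51 and 6.82 in HFD mice, against 7.21, 8.16, 6.87 and 6.70 in chow mice, which overlapped with a difference of 0.11 (SE 0.27). Chow mouse 2 alone was above all HFD mice. The SD of Socs2 was 0.16 in NMN mice, against 0.35 in HFD mice on chip B, and 0.37 in HFD mice on chip A, against 0.65 in chow mice.

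Igf1 encodes the hormone that the liver secretes under growth hormone and that carries much of its growth effect. It stood at 11.05, 11.13, 10.65 and 10.95 in NMN mice, against 11.31, 11.16, 11.38 and 11.09 in HFD mice on chip B. All but NMN mouse 2 lay below the lowest HFD mouse. The NMN difference was -0.29, a 1.22-fold lower level (SE 0.11, 95% interval -0.53 to -0.05, adjusted p = 0.401 by limma), and -0.19 without NMN mouse 3. On chip A, Igf1 stood at 11.24, 11.09, 11.35 and 11.05 in HFD mice, against 11.55, 11.74, 11.72 and 11.41 in chow mice. The HFD and chow values did not overlap, with a difference of -0.42 (1.34-fold lower, SE 0.11). The highest HFD mouse, 3, came close to the lowest chow mouse, 4.

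Cux2, the female-biased repressor, was low in HFD livers. In NMN mice it stood at 5.79, 6.31, 5.37 and 7.04, against 4.72, 4.91, 5.56 and 4.78 in HFD mice on chip B. Only NMN mouse 3 lay below the highest HFD mouse. The difference between NMN and HFD mice was 1.14, a 2.20-fold higher level (SE 0.29, 95% interval 0.53 to 1.74, adjusted p = 0.190 by limma), the smallest adjusted value among the 9 genes. On chip A it stood at 4.94, 4.82, 5.32 and 5.02 in HFD mice, against 6.997, 6.900, 6.634 and 6.275 in chow mice, a difference of -1.68 (3.19-fold lower, SE 0.29). The HFD levels lay close to background, with HFD mouse 4 on chip B just over the detection limit, so these folds are drawn toward 0. Without background correction the NMN difference was 0.67 and the diet difference -1.04.

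Bcl6 encodes the repressor that binds some of the same liver sites as STAT5 and is higher in males. It stood at 7.71, 8.33, 8.84 and 9.46 in NMN mice, against 7.63, 7.78, 7.17 and 8.03 in HFD mice on chip B. All but NMN mouse 1 lay above the highest HFD mouse. The NMN difference was 0.93, a 1.91-fold higher level (SE 0.34, 95% interval 0.22 to 1.65, adjusted p = 0.380 by limma). On chip A, Bcl6 stood at 7.70, 7.67, 7.16 and 8.06 in HFD mice, against 8.49, 8.76, 9.33 and 9.77 in chow mice. The HFD arrays lay below all chow arrays, with a difference of -1.44 (2.72-fold lower, SE 0.34). The mice within a group spread widely in both the NMN group (SD 0.74) and the chow group (SD 0.57).

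A1bg, a secreted immunoglobulin-family protein gene that is female-biased in mouse liver, had the largest differences of the 9. It stood at 6.87, 6.62, 5.32 and 8.25 in NMN mice, against 8.34, 9.28, 9.57 and 7.85 in HFD mice on chip B. NMN mouse 4 was above HFD mouse 4, and the other 3 NMN mice were below all HFD mice. Between NMN and HFD mice the mean difference was -1.99, a 3.98-fold lower level (SE 0.67, 95% interval -3.43 to -0.56, adjusted p = 0.332 by limma). On chip A it stood at 8.51, 9.26, 9.59 and 7.77 in HFD mice, against 9.87, 12.34, 12.77 and 10.51 in chow mice. No HFD value reached the chow values, with a difference of -2.59 (6.03-fold lower, SE 0.67), with HFD mouse 3 close to chow mouse 1. The 2 highest HFD mice, 2 and 3, were also those with the neutrophil transcripts. Without them the NMN difference was -1.33 and the diet difference -3.24.

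Cyp2d9, a cytochrome P450 that hydroxylates testosterone and is male-biased, was the only gene of the 9 that was higher in HFD livers without overlap. It stood at 9.31, 9.69, 9.82 and 8.58 in NMN mice, against 9.30, 8.17, 8.86 and 9.21 in HFD mice on chip B. NMN mouse 4 lay below 3 of the HFD mice, and the other 3 NMN mice lay above all of them. With NMN the mean differed by 0.46 (SE 0.31, 95% interval -0.21 to 1.13, adjusted p = 0.705 by limma). On chip A it stood at 9.24, 8.20, 8.80 and 9.10 in HFD mice, against 7.82, 7.15, 6.81 and 7.65 in chow mice, a difference of 1.47 (2.78-fold higher, SE 0.31). Without HFD mice 2 and 3 the NMN difference was 0.09 and the diet difference 1.81.

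Mup20 encodes darcin, a major urinary protein that acts as a male scent signal. It stood at 8.38, 8.80, 8.24 and 9.01 in NMN mice, against 9.01, 9.08, 9.28 and 8.86 in HFD mice on chip B. NMN mouse 4 was within the HFD values, and the other 3 NMN mice were below them. Mup20 differed by -0.45 with NMN, a 1.36-fold lower level (SE 0.16, 95% interval -0.79 to -0.11, adjusted p = 0.375 by limma). On chip A it stood at 7.65, 7.94, 8.03 and 7.62 in HFD mice, against 8.40, 8.85, 8.50 and 8.70 in chow mice, a difference of -0.80 (1.74-fold lower, SE 0.16). No HFD mouse reached the lowest chow mouse on that chip.

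Mup20 read much higher in the chip B array of each HFD mouse than in its chip A array, by 1.36, 1.14, 1.25 and 1.24 in mice 1 to 4. The mean of 1.25 (SD 0.09, n = 4 mice) was the largest chip difference of all 6559 genes, whose median absolute chip difference was 0.05. By limma, 3 genes (0.0457%) had a chip difference at an adjusted p under 0.05: Mup20, H2-Q10 at 0.82 and Bcap31 at 0.52. The chip difference of Mup20 was known when the genes were picked, so its call is no evidence about it. That fit did not pair the 2 arrays of a mouse, so the count does not show that the other genes had no chip difference. Serpina1e, described next, was higher on chip B in each HFD mouse and did not pass. The chip moved Mup20 by more than the diet did, so its chip A and chip B levels are not comparable, and only differences within a chip are. The mouse Mup genes include near-identical copies, and whether this probe also reads them was not checked here.

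Serpina1e belongs to the alpha-1-antitrypsin family of secreted protease inhibitors, which in mice also includes near-identical copies, and is placed here with the male-biased genes. It stood at 5.34, 6.23, 5.69 and 5.81 in NMN mice, against 5.81, 5.54, 5.95 and 5.25 in HFD mice on chip B. The values were interleaved, with a difference of 0.13 (SE 0.33, 95% interval -0.57 to 0.83, adjusted p = 0.957 by limma). On chip A, Serpina1e stood at 5.51, 5.21, 5.15 and 4.78 in HFD mice, against 6.27, 7.38, 8.12 and 6.32 in chow mice. HFD and chow values did not overlap, with a difference of -1.86 (3.63-fold lower, SE 0.33), and chow mice 2 and 3 were well above chow mice 1 and 4. Serpina1e also read higher on chip B in each of the 4 HFD mice, by 0.47 on average (SD 0.23), the largest chip difference after Mup20 among the 9 genes. That difference had rank 14 in size among all 6559 genes, so the chip A and chip B levels of Serpina1e are not comparable either. The HFD levels on chip A lay close to background, with HFD mouse 4 just within the detection limit, so the diet fold is drawn toward 0. Without background correction the diet difference of Serpina1e was -1.24.

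**Figure D2:**
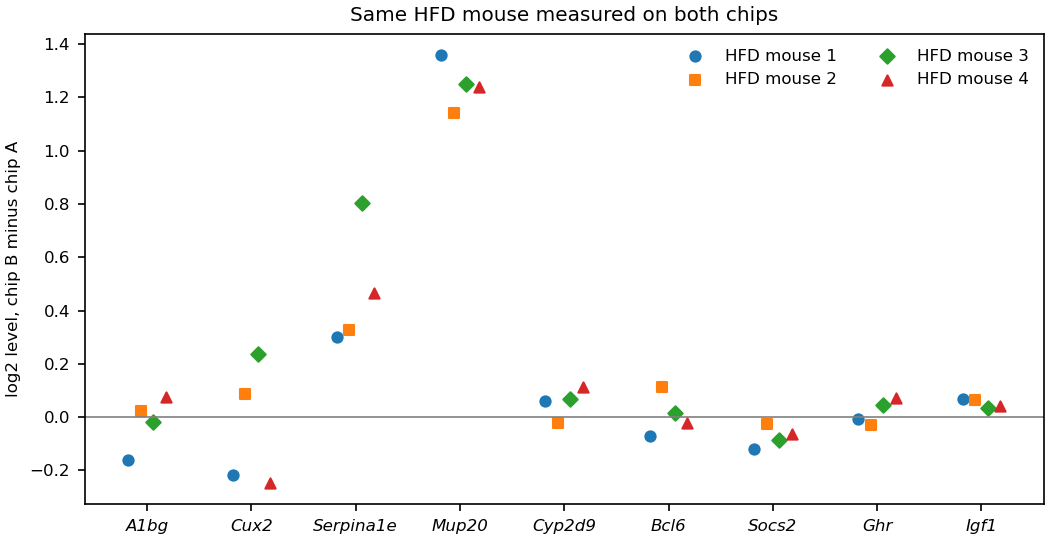
Log2 level on chip B minus that on chip A for the same HFD mouse (y axis) for each of the 9 genes (x axis), with a point per mouse. Mup20 lies between 1.14 and 1.36 and Serpina1e between 0.30 and 0.80, and the points of the other 7 genes lie between -0.25 and 0.24.

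Set side by side, the diet and NMN differences of Cux2 were -1.68 and 1.14, and those of Bcl6 were -1.44 and 0.93. For A1bg they were -2.59 and -1.99, and for Igf1 -0.42 and -0.29. Mup20 gave -0.80 and -0.45, Cyp2d9 1.47 and 0.46, and Serpina1e -1.86 and 0.13. The sum of both steps places NMN livers relative to chow livers through the HFD mice measured on both chips. That sum was -4.59 for A1bg (SE 0.95), 1.94 for Cyp2d9 (SE 0.44), -1.73 for Serpina1e (SE 0.47), -1.25 for Mup20 (SE 0.23) and -0.71 for Igf1 (SE 0.16). It was smaller for Cux2 at -0.54 (SE 0.40), Socs2 at -0.53 (SE 0.38), Bcl6 at -0.51 (SE 0.48) and Ghr at -0.08 (SE 0.13). Each SE counts the 2 arrays of an HFD mouse as independent, although those arrays deviated together (r = 0.765 to 0.892). The diet step was used to choose the genes, so these sums carry no test.

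**Figure D3:**
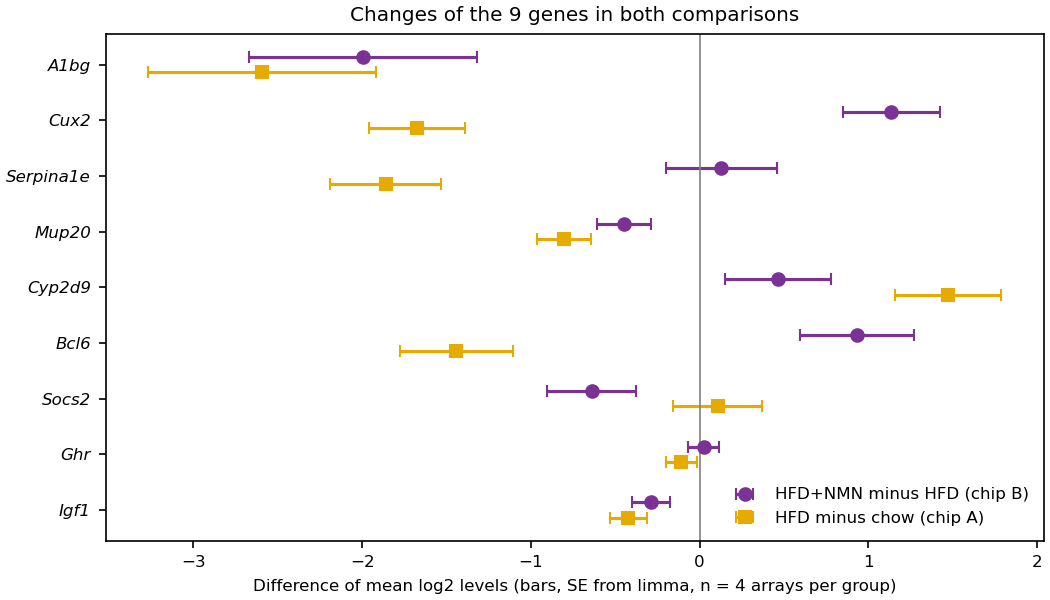
Difference of mean log2 levels (x axis) for each of the 9 genes (y axis), with circles for HFD+NMN minus HFD on chip B and squares for HFD minus chow on chip A. Bars are the SE from limma with 4 arrays per group. A1bg lies at -1.99 and -2.59, and the circles of Cux2 and Bcl6 lie at 1.14 and 0.93 where their squares lie at -1.68 and -1.44.

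Markers of other cells differed between HFD and chow mice as well. The 5 of 8 Kupffer cell and macrophage markers that were measured had a mean log2 level of 7.84 to 8.87 in HFD mice on chip A, against 6.95 to 7.68 in chow mice. Clec4f, Vsig4, Adgre1 and Lyz2 were detected on all 16 arrays, Timd4 on 5 and Cd5l on 0. On chip B the range was 7.76 to 9.21 in NMN mice, against 7.80 to 8.88 in HFD mice. The 5 of 6 endothelial markers that were measured averaged 7.15 to 7.40 in HFD mice on chip A, against 6.53 to 7.03 in chow mice, and 6.89 to 7.32 in NMN mice, against 7.17 to 7.39 in HFD mice on chip B. Markers of hepatocytes, 6 of 8 measured, averaged 11.124 to 11.285 in HFD mice on chip A, against 11.249 to 11.411 in chow mice, and 11.337 to 11.401 in NMN mice, against 11.411 to 11.501 in HFD mice on chip B. The part of these marker differences in the results was not tested. NMN mouse 3, the mouse with the higher lymphocyte markers, was the lowest NMN mouse for A1bg, Cux2, Mup20, Socs2, Ghr and Igf1 and the highest for Cyp2d9. Without it the NMN difference was -1.51 for A1bg, 1.39 for Cux2, -0.33 for Mup20, 0.30 for Cyp2d9, 0.85 for Bcl6, -0.59 for Socs2, -0.19 for Igf1, 0.11 for Ghr and 0.16 for Serpina1e. Each kept its sign, and 0 of 6559 genes passed without this mouse. NMN mouse 4 was the highest NMN mouse for A1bg, Cux2, Bcl6, Mup20 and Ghr and the lowest for Cyp2d9. Leaving out NMN mouse 4 instead gave -2.49 for A1bg, 0.83 for Cux2, -0.58 for Mup20, 0.72 for Cyp2d9 and 0.64 for Bcl6. It gave -0.61 for Socs2, -0.29 for Igf1, -0.04 for Ghr and 0.12 for Serpina1e, so only Ghr changed sign. Without HFD mice 2 and 3 each of the 9 genes kept the sign of both its diet and its NMN difference.

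Beyond the group means, the 9 genes were compared with each other within groups, as deviations of the 12 mice from their group mean with the 2 arrays of an HFD mouse averaged. This comparison was added after the data were seen. Of 36 pairs, the relation with the largest r in size was between A1bg and Cyp2d9, a female-biased and a male-biased target. Mice high in A1bg were low in Cyp2d9: chow mouse 3 deviated by 1.39 in A1bg and -0.55 in Cyp2d9, NMN mouse 4 by 1.48 and -0.77, NMN mouse 3 by -1.44 and 0.47, and chow mouse 1 by -1.50 and 0.46. Pearson's r was -0.868 (p = 0.00253, adjusted p = 0.0911) and Spearman's rho -0.881 (p = 0.00159, adjusted p = 0.0573), both by two-sided exact permutation within groups and adjusted over the 36 pairs. Neither passed 0.05 after adjustment. Without the 2 mice farthest from the median in A1bg, r was -0.776, without HFD mice 2 and 3 it was -0.926, and without NMN mouse 3 it was -0.849. Within the 4 mice of each group, r was -0.937 for NMN, -0.667 for HFD and -0.983 for chow, given as a description. The sign of r did not follow sex bias among the 9 genes. A1bg had a positive r with Mup20 (0.673) and Serpina1e (0.671), both placed with the male-biased genes. Cyp2d9 had a negative r with them (-0.529 and -0.425). None of these passed the adjustment either.

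By the size of r, the next pairs were Cux2 with Mup20 (r = 0.733, adjusted p = 0.324 by exact permutation) and Cux2 with Ghr (r = 0.697, adjusted p = 0.358 by exact permutation). Spearman's rho was 0.622 and 0.573 for these pairs, each with an adjusted p of 0.384 by exact permutation. Neither passed the adjustment, and without the 2 mice farthest from the median in Cux2 these r were 0.398 and 0.220. Within groups, Cux2 with Mup20 gave r = 0.978 for NMN, 0.775 for HFD and -0.247 for chow. Cux2 with Ghr gave 0.940 for NMN, -0.110 for HFD and -0.199 for chow, so it was positive in the NMN mice only. All NMN mice were on chip B, all chow mice on chip A and each HFD mouse on both, so mice of 1 group were always compared on the same chip or chips.

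**Figure D4:**
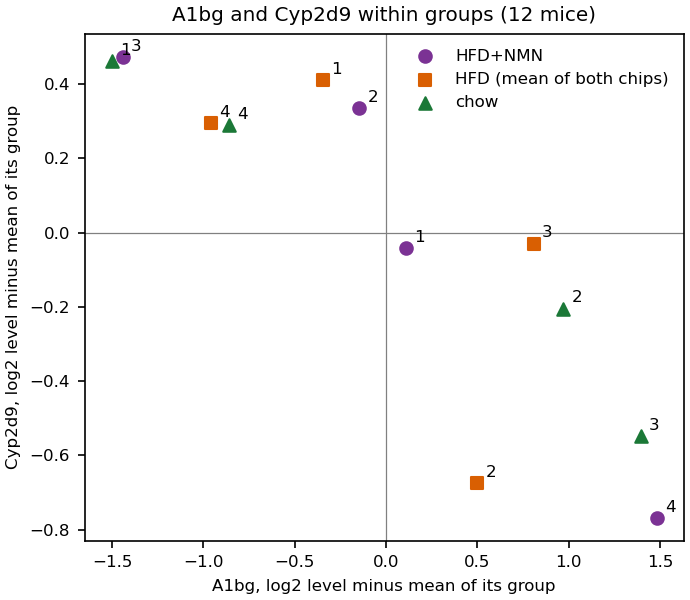
Deviation of each of 12 mice from its group mean in log2 level, with A1bg on the x axis and Cyp2d9 on the y axis. Circles are NMN mice, squares HFD mice averaged over both chips and triangles chow mice, with mouse numbers beside them. The points run from upper left to lower right, with r = -0.868.

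The 73 other genes of 6 lists on the growth hormone pathway were read in the same fit, and 32 of them were measured. The lists were drawn up with earlier results of these data known. Their counts and p-values are therefore no independent evidence about the pathway. In HFD against chow, 1 of the 32 rose and 1 fell at an adjusted p under 0.05, against 3.16% of all genes called higher and 3.74% called lower. Their median difference was -0.20 against -0.01 for all genes. With NMN, 0 of the 32 passed in either direction by limma, 5 had an unadjusted p under 0.05 (9.8% of all genes did), and their median was -0.04 against -0.0033 for all genes. Without HFD mice 2 and 3, 0 of the 32 passed in either comparison and the median diet difference was -0.13. Without NMN mouse 3 the median NMN difference was 0.02.

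Among signal transduction genes, 3 of 7 were measured (Jak2, Stat3 and Stat5a) and 0 passed in either comparison. Stat3, a STAT factor shared by many cytokines, differed by -0.28 with NMN (SE 0.20, adjusted p = 0.717; -0.13 without HFD mice 2 and 3) and by -0.10 with diet (SE 0.20, adjusted p = 0.810). Of the feedback inhibitors, 5 of 6 were measured, all with a positive diet difference and a median of 0.46, and 1 passed. The median was the value of Ptpn6, a phosphatase abundant in blood cells, which stood at 7.39, 8.42, 7.95 and 7.38 in HFD mice on chip A, against 7.42, 7.29, 7.48 and 7.10 in chow mice. HFD mice 2 and 3, which stood apart in neutrophil markers, were its 2 highest. Without them Ptpn6 differed by 0.064, and the median of the 5 genes was 0.22. Ptpn1, a tyrosine phosphatase that acts on JAK2 and the insulin receptor, rose by 0.38 under HFD (SE 0.11, adjusted p = 0.0463). It stood at 4.82, 5.14, 5.01 and 4.70 in HFD mice on chip A, against 4.49, 4.56, 4.45 and 4.64 in chow mice, without overlap but low on the scale. Without HFD mice 2 and 3 its difference was 0.22 (adjusted p = 0.383), and the call was also lost in most other settings.

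Cish, a STAT5 target and inhibitor related to Socs2, stood at 6.50, 6.36, 6.56 and 6.31 in NMN mice, against 7.11, 7.36, 7.08 and 6.27 in HFD mice on chip B. HFD mouse 4 was the lowest HFD mouse, as it was for Socs2, and here it lay below all NMN mice. The NMN difference was -0.52 (SE 0.27, adjusted p = 0.574), and -0.26 without HFD mice 2 and 3. On chip A, Cish stood at 7.13, 7.23, 7.24 and 6.33 in HFD mice, against 6.69, 6.41, 5.76 and 5.44 in chow mice, a difference of 0.91 (SE 0.27, adjusted p = 0.0570), or 0.66 without HFD mice 2 and 3.

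Of the IGF axis, 4 of 7 genes were measured and 0 passed. Igfals, the acid-labile subunit that holds IGF1 in the circulation, stood at 10.44, 10.30, 10.75 and 10.53 in HFD mice on chip A, against 10.93, 11.08, 11.26 and 10.62 in chow mice, which overlapped with a difference of -0.47 (SE 0.20, adjusted p = 0.156). Igfbp2, an IGF-binding protein, differed by -0.51 with NMN (SE 0.19, adjusted p = 0.393). Without NMN mouse 3 its difference was -0.36, and without HFD mice 2 and 3 it was -0.67. Of the transcription factors, 6 of 11 were measured and 0 passed. Hnf4a differed by -0.16 with diet (SE 0.10, adjusted p = 0.317), and Cebpb by 0.29 with NMN (SE 0.18, adjusted p = 0.664), or 0.17 without NMN mouse 1.

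Of the other female-biased targets, 7 of 21 were measured and 0 passed, with 6 of 7 diet differences negative and a median of -0.39, or -0.21 without HFD mice 2 and 3. Abcd2, a peroxisomal fatty acid transporter, differed by -0.28 with diet (SE 0.10, adjusted p = 0.0986). It passed in the second deposited table (-0.31, adjusted p = 0.0270) and without the chip A array of HFD mouse 4 (-0.36, adjusted p = 0.0324). Its difference was -0.13 without background correction. The cytochrome P450 gene Cyp2b9 stood at 11.18, 11.01, 10.97 and 11.62 in NMN mice, against 11.87, 11.41, 11.63 and 11.63 in HFD mice on chip B, a difference of -0.44 (SE 0.13, adjusted p = 0.290). NMN mouse 4 lay inside the range of the HFD mice, as it did for A1bg, Cyp2d9 and Mup20.

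Of the other male-biased targets, 7 of 21 were measured, also with 6 of 7 diet differences negative, as for the female-biased targets. Their median was -0.30, or -0.45 without HFD mice 2 and 3, against -0.01 for all genes, and 1 passed. Cyp7b1, an oxysterol hydroxylase of the alternative bile acid pathway, stood at 8.73, 8.75, 8.69 and 8.82 in HFD mice on chip A, against 9.28, 9.27, 9.21 and 9.23 in chow mice. It fell by 0.50 (SE 0.11, adjusted p = 0.0161), with groups far apart beside their spread. Without HFD mice 2 and 3 the difference was -0.47 and no longer passed (adjusted p = 0.162). Gstp1, a glutathione transferase, stood at 10.39, 9.82, 10.60 and 9.59 in NMN mice, against 9.30, 9.53, 9.32 and 9.53 in HFD mice on chip B, without overlap. Its NMN difference of 0.68 did not pass (SE 0.17, adjusted p = 0.190). Mup2, another urinary protein gene, was 0.31 higher on chip B than on the first chip in HFD mice, a smaller gap than that of Mup20.

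**Figure D5:**
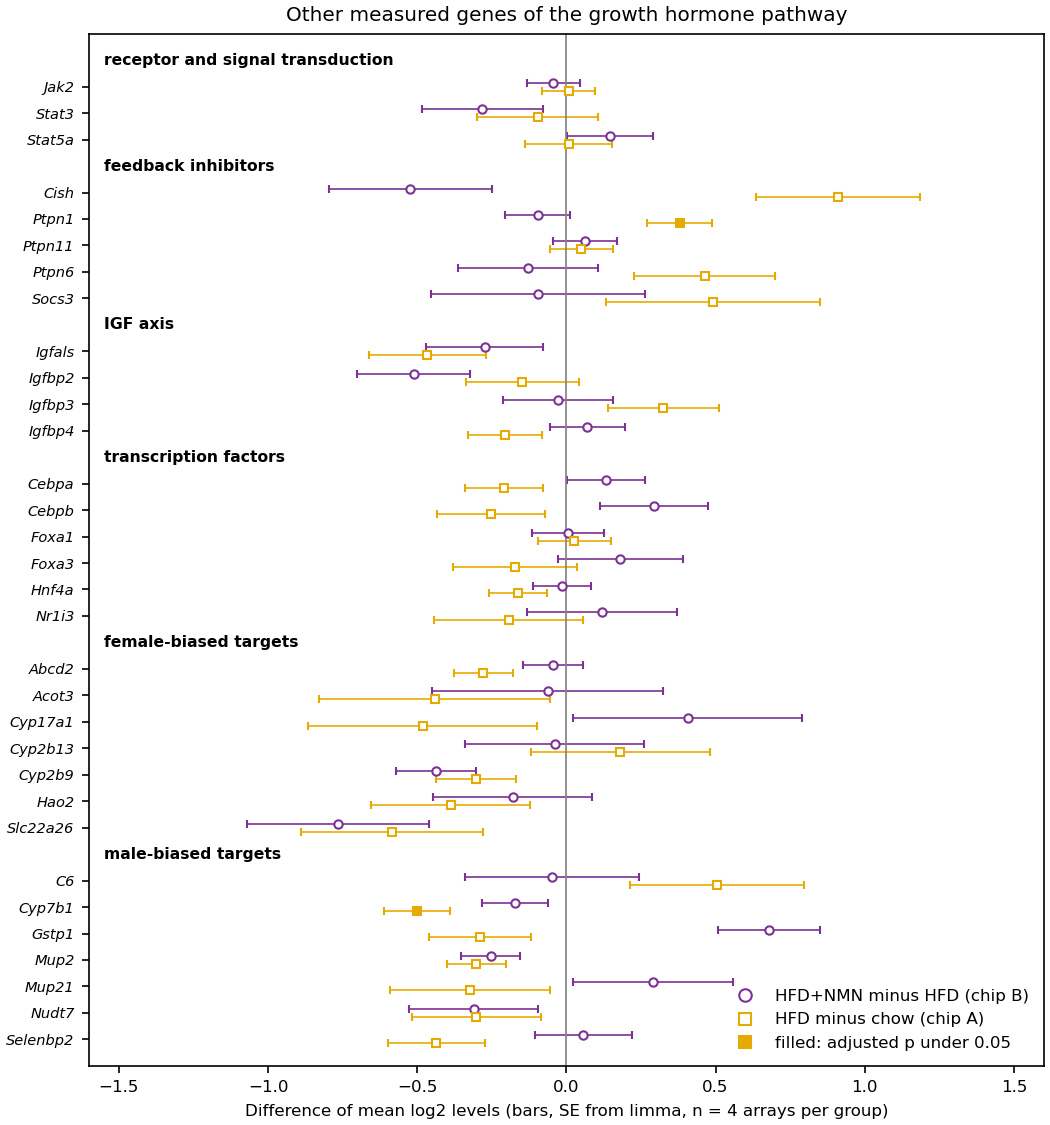
Difference of mean log2 levels (x axis) for the 32 other measured genes of the 6 growth hormone lists (y axis, grouped by list), with circles for HFD+NMN minus HFD on chip B, squares for HFD minus chow on chip A and the SE from limma as bars. Filled symbols have an adjusted p under 0.05, which only the squares of Ptpn1 and Cyp7b1 do.

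The genes whose levels over the 12 mice, taken relative to the HFD mean of the same chip, were most like those of each gene are given with Pearson's r as a description. A1bg was closest to Bmp1 (0.974), Hsd17b2 (0.950) and Masp1 (0.946), Mup20 to Mup2 (0.981), Mpnd (0.969) and Masp1 (0.958), and Cyp2d9 to Upp1 (0.959), Wfdc2 (0.950) and Lgals1 (0.949). Igf1 was closest to Masp2 (0.944), Btd (0.940) and Urad (0.936), and Socs2 to Upf2 (0.952), Nrp1 (0.898) and Zfx (0.896). Cux2 was closest to Aldh1b1 (0.926), Dgat2 (0.904) and Ccnc (0.894), and Serpina1e to Slc13a2 (0.916), Sult5a1 (0.914) and Pja1 (0.908). The weakest maxima were those of Bcl6 with Smap2 (0.858), Cds2 (0.854) and Cse1l (0.849), and of Ghr with Fahd1 (0.864), Exoc3 (0.858) and Tsc2 (0.855). These values are the highest among all measured genes over 12 mice in 3 groups, and they follow group differences as well as differences between mice.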

How the data were processed

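The deposited signal table gives an intensity on a linear scale for each of 25697 probes on 16 arrays. The authors had scaled it to the same mean signal on every array. Per the file headers, every intensity comes with a detection p-value. A second table deposited by the authors holds a z score per array. Of its entries, 73.1% lie on a linear function of log2 signal to within 0.001, and it was used only as an alternative. No source used here names the scanner software.

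Intensities were background-corrected and quantile-normalised with neqc of limma 3.58.1 (R 4.3.3), using the detection p-values and an offset of 16, which draws log2 differences toward 0 at low signal. Probes detected (p under 0.01) on at least 4 arrays were kept, and the probe with the highest mean stood for a gene, leaving 6559 genes. Names came from the platform annotation, updated by Entrez number. One limma fit with 4 groups gave both contrasts, with p-values adjusted over all genes by the method of Benjamini and Hochberg. It counts the 2 arrays of an HFD mouse as independent. Arrays with the same number in HFD and chow (r = -0.007 to 0.237) or in NMN and HFD (r = -0.275 to 0.328) did not deviate together, so groups were not paired, whereas the HFD arrays of both chips did (r = 0.765 to 0.892).

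The 9 genes, the lists of pathway genes and the markers were chosen with earlier results of these data known. Besides the 9 genes, the text names up to 4 genes per list and contrast with an adjusted p under 0.05, or else the gene with the smallest p, the 3 genes most like each of the 9, and, chosen after their values were seen, Cish for diet, Ptpn6, Mup2, H2-Q10 and Bcap31. The comparison of the 9 genes within groups was also added after the data were seen. Alternatives covered the background, the normalisation, the filter, the probe, array weights, the blocks, the second table and leaving out mice. The limma fit for the NMN comparison was tested on simulated data in which all arrays were independent. The other steps were not tested in that way.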

Additional observations from a re-analysis of the deposited data

Results flagged for a closer look

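Of 36 groups of 4 arrays (9 genes in 4 groups), 1 held an array far from the other 3 by Dixon's criterion, which chance alone gives in about 1 of 20 groups. It was Ghr in chow mouse 3, at 11.41 on the log2 scale, where the other chow mice stood at 11.28 to 11.29.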

How the results depend on the processing

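The diet count over all genes was 452. It was 259 with no filter on detection, 780 with array weights, 99 without HFD mice 2 and 3, and 201 to 510 when each array was left out in turn. Among the 32 other list genes the diet count was 2. It was 1 without background correction, 1 with scaling to the 75th percentile, 1 with no filter, 1 with only the 8 arrays of the chip, 0 without HFD mice 2 and 3, and 1 to 4 when each array was left out. The NMN count of 0 became 1 without HFD mice 2 and 3 and 0 to 3 when each array was left out, with 3 without NMN mouse 4. The list count for NMN was 0 in every setting run. With the replicate number as a block, the diet count was 442, the list count 2 and the NMN count 0. That block and the mouse as a random block each ended the call of Ptpn1 (adjusted p 0.0596 and 0.0556), and Cyp7b1 was lost only without HFD mice 2 and 3 (-0.47, adjusted p = 0.162).

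Across 18 alternatives, the adjusted p for NMN by limma ranged from 0.156 to 0.384 for Cux2, 0.206 to 0.775 for A1bg, 0.188 to 0.799 for Mup20, 0.258 to 0.769 for Bcl6, 0.303 to 0.862 for Igf1 and 0.319 to 0.824 for Socs2. The NMN difference of Ghr turned to -0.0026 with scaling to the 75th percentile and ran from -0.041 to 0.112 when each array was left out. In the same leave-outs Serpina1e ran from -0.024 to 0.270 for NMN, Stat3 from -0.185 to 0.083 for diet and Socs2 from -0.072 to 0.416 for diet. Stat3 ran from -0.448 to -0.167 and Cebpb from 0.168 to 0.403 for NMN. The diet difference of Cux2 was -1.04 without background correction and -0.66 with the second table, whose z scores were multiplied by the mean SD of log2 signal. Cux2 is 1 of 3 of the 9 genes (with Ghr and Igf1) whose entries there do not lie on the line of log2 signal, and how such entries were made is not known. The diet difference of Serpina1e was -1.24 without background correction, and its sum over both steps -1.16. Abcd2, not called for diet, passed with the second table and without the chip A array of HFD mouse 4. The cause of these changes was not tested.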
